A study of Mus musculus with 6 samples.

Results

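The core circadian clock genes were measured in the liver by RNA sequencing. They comprise the activators Arntl, Clock and Npas2, the REV-ERB repressors Nr1d1 and Nr1d2, and the repressors Per1, Per2, Per3, Cry1 and Cry2. Members were chosen by gene name, and all 10 were found among the 20673 genes of the tables. All 10 also passed the filter on low counts, which left 13105 genes for testing.

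The clock of a liver cell is a transcriptional loop. BMAL1, the protein of Arntl, pairs with CLOCK or its relative NPAS2, binds E-box sequences and activates the Per, Cry and Nr1d genes. PER and CRY proteins then block the pair, while the REV-ERB proteins of Nr1d1 and Nr1d2 repress Arntl, Clock, Npas2 and Cry1 through an element that the ROR proteins activate. In the liver the RNAs that REV-ERB represses peak toward the end of the night, those of the REV-ERB genes by day and those of the Per genes later, and meal times can shift this rhythm.

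Livers came from C57BL/6J mice, 3 fed a regular diet (RD) and 3 fed a high-cholesterol diet (HCD) for 3 days, with no other treatment or engineered allele named in the sources used here. The HCD also held cocoa butter and sodium cholate, a bile salt, so that cholesterol, fat and cholate cannot be told apart. The hour at which each liver was taken and the sex of each mouse are not given in the sources used here, and the data give levels in 6 livers and not a rhythm. Nor do those sources say whether the livers of a diet came from separate cages or days, so that the p-values measure the spread between these livers.

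Depth lay between 13771630 and 23129576 counts per liver. The hepatocyte markers Alb, Ttr and Apoa1 were abundant in all livers, and the summed CPM (TMM-scaled read counts at a shared library total) of 8 hepatocyte markers ranged from 96500 to 122969 CPM with RD and from 101276 to 141232 CPM with HCD. Most of that sum is Alb, and by gene 5 of the 8 markers had a log2 fold change below 0 (median -0.24), with Ttr higher and Hnf4a and Serpina1a lower in all 3 HCD livers. Of the 8, edgeR called 0 and DESeq2 called 1, higher. HCD replicate 1 stood apart. Its 4 Y-linked genes Ddx3y, Kdm5d, Eif2s3y and Uty had 0 counts, which allows up to 0.162 CPM. The other 5 livers had reads of each. Together with the sex-linked gene Xist, these genes summed to 106 to 118 CPM with RD and to 76.1 to 254 CPM with HCD. In HCD replicate 1 that sum was Xist alone. The study used mice of both sexes, so that diet and sex may be partly mixed in this comparison, which was not tested. HCD replicate 1 also lay farthest from RD on the first principal component of all genes tested. Fold changes of the 10 clock genes are therefore also given without it.

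Promoters show where the loop can act on its own genes. RefSeq promoter windows on GRCm38.p6, from 250 bases before to 50 bases after each start site, held 9 of the 10 genes, and Per2 was not searched. They were searched on both strands for the E-box CACGTG, its variant CACGTT, the ROR and REV-ERB element as TAGGTCA or TGGGTCA, the D-box as TTATGTAA or TTACGTAA, which PAR-bZIP factors such as DBP bind, and the cAMP response element TGACGTCA. Of the 27025 genes with a window, 8.09% held the E-box and 5.44% the variant. The ROR and REV-ERB element was in 7.35%, the D-box in 1.23% and the cAMP response element in 2.03%.

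Of the 9 genes searched, the E-box was found in Per1 and Cry1, and the variant in Cry1, Cry2 and Nr1d1. These sites are shown because they are the letters through which the activators can reach genes of their own loop, and each is written 5′ to 3′ on the gene's strand with the match in capitals (AACGTG is CACGTT on the other strand).
Per1, chr11:69098771-69098800, plus strand: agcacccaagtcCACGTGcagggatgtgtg
Cry1, chr10:85185097-85185126, minus strand: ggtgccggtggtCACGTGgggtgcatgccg
Cry1, chr10:85185116-85185145, minus strand: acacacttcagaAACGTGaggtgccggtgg
Cry2, chr2:92434218-92434247, minus strand: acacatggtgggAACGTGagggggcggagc
Nr1d1, chr11:98775388-98775417, minus strand: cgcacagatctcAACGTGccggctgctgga
The first Cry1 match begins 60 bases and the second 79 bases before the start site, so that the printed stretches share their ends but the motifs do not overlap. The Per1 and Cry2 matches both begin 166 bases before the start site, and that of Nr1d1 begins 28 bases before it.

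The element of the second loop, through which ROR and REV-ERB proteins compete, was found among the 9 genes searched in Arntl only, and the D-box in Per3 only.
Arntl, chr7:113207530-113207559, plus strand: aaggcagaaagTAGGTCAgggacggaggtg
Per3, chr4:151044852-151044881, minus strand: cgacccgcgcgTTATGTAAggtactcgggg
Per3, chr4:151044805-151044834, minus strand: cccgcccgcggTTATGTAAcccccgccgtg
The Arntl match lies 31 bases after a start site, so that 0 of the 9 genes held this element when only the bases before the start were searched. Npas2, Clock and Nr1d2 held none of these letters in their windows, and the cAMP response element was in 0 of the 9. A match describes letters in this window and does not show binding.

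The question put to the 6 livers was which clock RNAs differ between diets, and whether activators and repressors differ in the same direction. Per1, Npas2 and Cry1 were at higher values in all 3 HCD livers than in any RD liver, and Nr1d1, Nr1d2, Per2 and Clock were lower in all 3. Values of Arntl, Per3 and Cry2 overlapped between diets. After adjustment over all genes tested, 0 of the 10 genes passed an adjusted p of 0.05 in edgeR's quasi-likelihood test, in a comparison that called 3.27% of all genes. The same 7 non-overlapping genes had an unadjusted p under 0.05 in edgeR, and DESeq2 called 5 of the 10 at its adjusted p.

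Those counts read against all genes as follows. Diets did not overlap for 27.6% of all genes tested, against 7 of 10 clock genes. An unadjusted p of 0.05 or less was found in the higher direction for 11.1% of all genes and for 3 clock genes, and in the lower direction for 9.81% and for 4 clock genes. DESeq2 called 6.97% of all genes, and among them Per1, Npas2, Cry1, Nr1d2 and Per2. Since these are bulk livers, fewer cells of a type and less RNA per cell cannot be told apart.

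**Figure D1:**
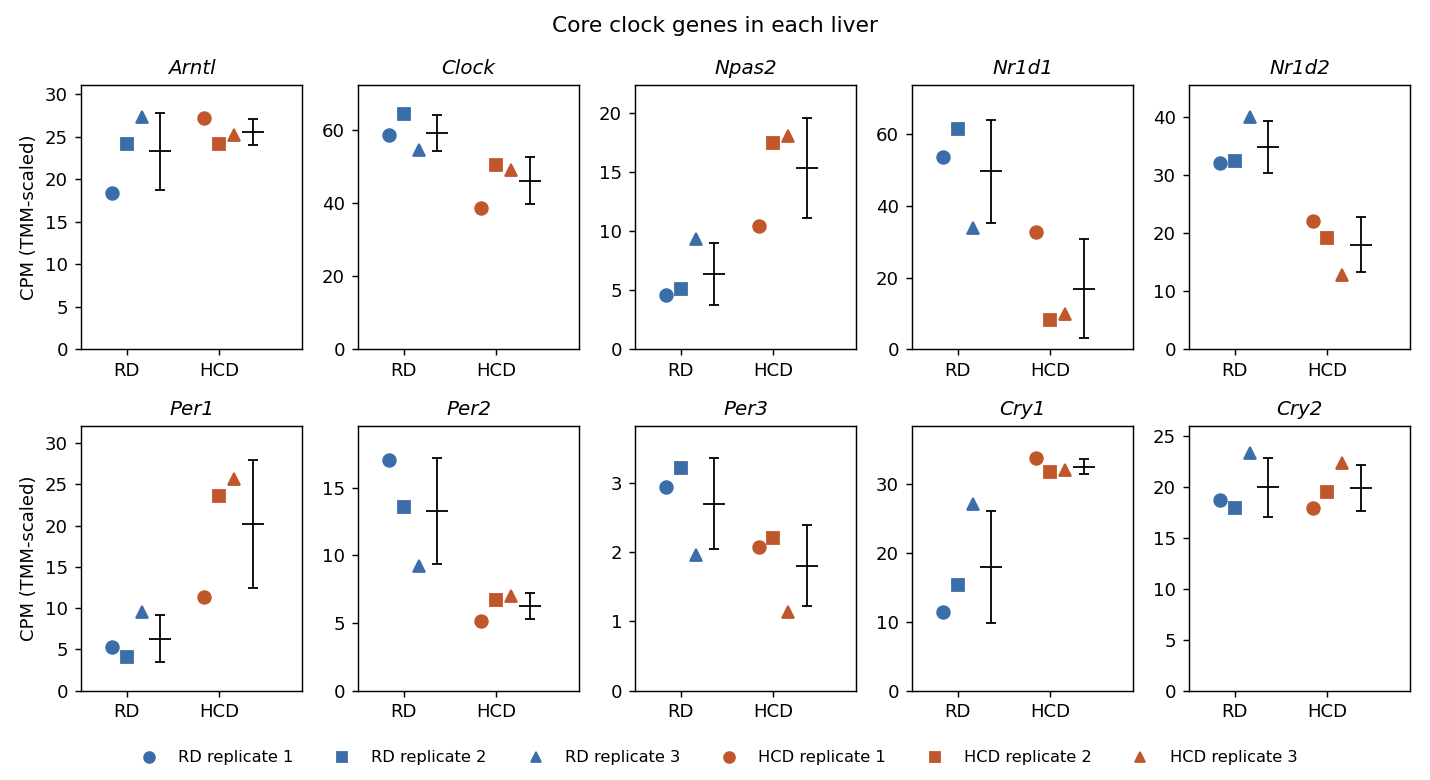
CPM of the 10 core clock genes (vertical axes, each from 0) in 3 RD and 3 HCD livers. Each symbol is 1 liver, and the black bar is the mean with its SD. RD and HCD livers do not overlap for Clock, Npas2, Nr1d1, Nr1d2, Per1, Per2 and Cry1, and RD replicate 3 is the RD liver nearest to HCD for 6 of these 7 genes.

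Among the activators, Npas2 was at higher and Clock at lower values with HCD, while Arntl overlapped. Arntl (ENSMUSG00000055116, chromosome 7), which encodes the partner that both CLOCK and NPAS2 need, was at 18.4, 24.1 and 27.3 CPM in the RD livers and at 27.1, 24.1 and 25.2 CPM in the HCD livers. Its lowest and its highest liver were both fed RD, and the HCD livers lay within that range. Its log2 fold change, always given as HCD over RD, was 0.13 (SE 0.17, 95% interval -0.26 to 0.53; edgeR adjusted p = 0.702). The interval covers changes in both directions, and the value was -0.01 without RD replicate 1 and 0.08 without HCD replicate 1.

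Npas2 (ENSMUSG00000026077, chromosome 1), whose protein can take the place of CLOCK, was at 4.57, 5.09 and 9.33 CPM with RD and at 10.4, 17.4 and 17.99 CPM with HCD. The highest RD liver and the lowest HCD liver were 1.12-fold apart. Npas2 had a log2 fold change of 1.26 (SE 0.33, 95% interval 0.51 to 2.01; edgeR adjusted p = 0.0797), or 2.39-fold. DESeq2 called it (adjusted p = 0.0063), and without HCD replicate 1 the log2 fold change was 1.47 (edgeR adjusted p = 0.054).

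Clock (ENSMUSG00000029238, chromosome 5), which encodes a histone-modifying transcription factor, was at 58.7, 64.6 and 54.7 CPM with RD and at 38.8, 50.7 and 49.0 CPM with HCD. All HCD livers were lower, but the nearest livers of the diets were only 1.08-fold apart. Its log2 fold change was -0.36 (SE 0.15, 95% interval -0.70 to -0.03; edgeR adjusted p = 0.205). Clock was not called at an adjusted p in any fit run, and its value was -0.25 without HCD replicate 1 (edgeR adjusted p = 0.357). It no longer reached an unadjusted p of 0.05 without that liver, without RD replicate 1, without RD replicate 2, in both limma fits on log2 FPKM, or once each library's trend with gene length was removed, where the value was -0.19. That trend moved with diet. The slope of a library's log2 CPM, relative to the mean of the 6 livers, per doubling of gene length was 0.041, 0.064 and 0.047 with RD and -0.013, -0.051 and -0.088 with HCD, without overlap. Clock has the most exon bases of the 10 genes (13727), and of the 10 genes 0 were called with the trend removed.

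Within a liver, the Npas2 to Clock log2 ratio of CPM was -3.55, -3.54 and -2.49 with RD and -1.85, -1.51 and -1.42 with HCD. The 3 HCD livers thus had the 3 highest ratios, with means 1.60 apart. Ratios between genes depend on gene length and are read here only as differences between livers. These differences still hold the length trend described above.

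Both REV-ERB genes were at lower values with HCD, and they showed different spreads. Nr1d1 (ENSMUSG00000020889, chromosome 11), which encodes REV-ERB alpha, a haem-binding repressor, was at 53.6, 61.6 and 33.7 CPM with RD and at 32.8, 8.13 and 9.81 CPM with HCD. HCD replicate 1 was 1.03-fold below RD replicate 3, whereas the other HCD livers were far lower. Nr1d1 had a log2 fold change of -1.54 (SE 0.50, 95% interval -2.67 to -0.40; edgeR adjusted p = 0.132), or 2.91-fold lower with HCD.

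Of the 10 genes, Nr1d1 was the one that HCD replicate 1 moved most. Without that liver its log2 fold change was -2.47 and it was called (edgeR adjusted p = 0.00925), together with Nr1d2 and Per1, in a fit that called 2.61% of all genes. With no filter on low counts, where 3.14% of all genes were called, it was called as well (edgeR adjusted p = 0.044), while DESeq2 on all 6 livers gave an adjusted p of 0.158. Nr1d1 shares 263 exon bases, 8.55% of its length, with Thra on the opposite strand, and without a stated strand such reads cannot be assigned. Thra, the thyroid hormone receptor alpha gene, was at a log2 fold change of 0.41 (edgeR adjusted p = 0.202), opposite in sign to Nr1d1.

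Nr1d2 (ENSMUSG00000021775, chromosome 14), which encodes the related repressor REV-ERB beta, was at 32.2, 32.5 and 40.03 CPM with RD and at 22.1, 19.2 and 12.8 CPM with HCD. Its diets were the most widely separated of the 10 genes, with the nearest livers 1.45-fold apart. Here RD replicate 1 was the RD liver nearest to HCD. The log2 fold change was -0.95 (SE 0.21, 95% interval -1.43 to -0.46), a 1.93-fold lower level with HCD. Nr1d2 had the lowest adjusted p of the 10 genes in edgeR, at 0.052, just over the threshold. Nr1d2 was called by DESeq2 (adjusted p = 0.0024), without HCD replicate 1 (edgeR adjusted p = 0.0423, log2 fold change -1.12) and without the filter on low counts (edgeR adjusted p = 0.0186).

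The 3 Per genes did not share a direction. Per1 (ENSMUSG00000020893, chromosome 11), a repressor that also responds rapidly to glucocorticoids and cAMP, was at 5.29, 4.05 and 9.51 CPM with RD and at 11.4, 23.6 and 25.6 CPM with HCD. All HCD livers were above RD, and HCD replicate 1 lay close to RD replicate 3. The log2 fold change of 1.67 (SE 0.39, 95% interval 0.78 to 2.55; edgeR adjusted p = 0.0566) was the largest of the 10 genes in size with all 6 livers in edgeR, at 3.18-fold. Nr1d1 exceeded it with the replicate block (-1.78 against 1.67), in limma on log2 of FPKM plus 1 (-1.61 against 1.24) and plus 0.1 (-1.76 against 1.65), and without HCD replicate 1 (-2.47 against 1.95). Per1 was called by DESeq2 (adjusted p = 0.000214), with no filter on low counts (edgeR adjusted p = 0.0111) and without HCD replicate 1 (edgeR adjusted p = 0.0294, log2 fold change 1.95).

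Per2 (ENSMUSG00000055866, chromosome 1), a repressor with a similar protein, was at 17.0, 13.5 and 9.20 CPM with RD and at 5.16, 6.69 and 6.97 CPM with HCD. All HCD livers were below RD, opposite to Per1, and the RD livers were spread more widely than the HCD livers. Per2 was at a log2 fold change of -1.08 (SE 0.27, 95% interval -1.69 to -0.48; edgeR adjusted p = 0.0665), so that the level was 2.12-fold lower with HCD. DESeq2 called it (adjusted p = 0.0111), and without HCD replicate 1 it was at -0.95 (edgeR adjusted p = 0.127).

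Per3 (ENSMUSG00000028957, chromosome 4), the Per gene that the loop needs least, was the least abundant of the 10 genes, with 14 to 61 counts per liver. It was at 2.93, 3.21 and 1.95 CPM with RD and at 2.07, 2.21 and 1.13 CPM with HCD. The diets overlapped, and the log2 fold change of -0.56 had a 95% interval from -1.53 to 0.40 (SE 0.42; edgeR adjusted p = 0.483). That interval holds both 0 and the value of Per2, so that a difference of that size is not excluded for Per3. The value was -0.68 without HCD replicate 1 (edgeR adjusted p = 0.496) and -0.34 without HCD replicate 3.

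The Per1 to Per2 log2 ratio within a liver was -1.60, -1.63 and 0.04 with RD and 1.07, 1.75 and 1.81 with HCD. The HCD mean was 2.60 above the RD mean, and RD replicate 3 again lay nearest to HCD.

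Of the cryptochrome genes, Cry1 was at higher values with HCD and Cry2 overlapped. Cry1 (ENSMUSG00000020038, chromosome 10), a late repressor of the loop that REV-ERB in turn represses, was at 11.4, 15.3 and 27.0 CPM with RD and at 33.7, 31.8 and 32.1 CPM with HCD. The HCD livers spanned 0.08 and the RD livers 1.21 on the scale of log2 of CPM plus 0.5. The log2 fold change was 0.86 (SE 0.28, 95% interval 0.21 to 1.504; edgeR adjusted p = 0.138), or 1.81-fold. Cry1 was highest in RD replicate 3 among the RD livers, and without that liver the log2 fold change was 1.29 and Cry1 was the 1 clock gene called (edgeR adjusted p = 0.0308), in a fit that called 1.11% of all genes. It was 0.62 without RD replicate 1 (edgeR adjusted p = 0.332) and 0.83 without HCD replicate 1 (edgeR adjusted p = 0.202).

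Cry2 (ENSMUSG00000068742, chromosome 2), its paralog, was at 18.7, 17.9 and 23.3 CPM with RD and at 17.9, 19.4 and 22.3 CPM with HCD. These values overlapped throughout. The log2 fold change was -0.01 (SE 0.17, 95% interval -0.39 to 0.37; edgeR adjusted p = 0.979), and its sign changed with the scaling and without HCD replicate 1 (0.06). The Cry1 to Cry2 log2 ratio was -0.69, -0.22 and 0.21 with RD and 0.90, 0.69 and 0.52 with HCD, without overlap.

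The smallest two-sided p that an exact permutation test of 3 livers against 3 can give is 0.1. Each of the 7 genes whose diets did not overlap reached that 0.1 in the exact permutation test, while Arntl gave 0.7, Per3 0.3 and Cry2 0.9.

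**Figure D2:**
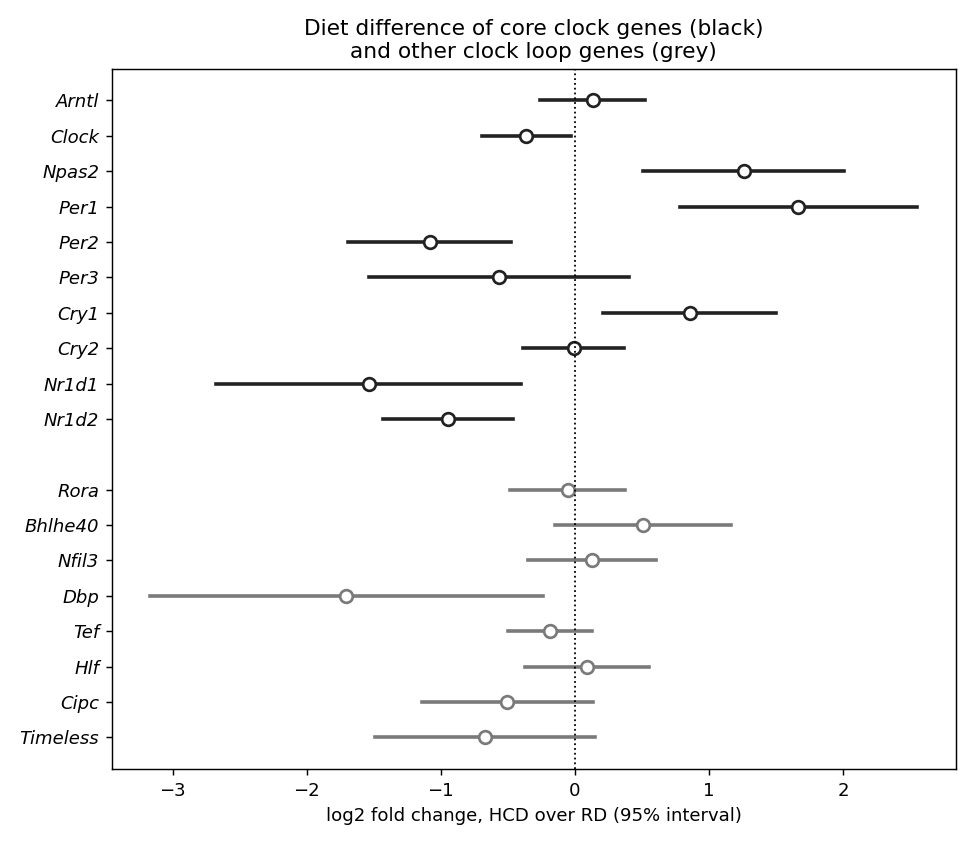
The log2 fold change of HCD over RD (horizontal axis) with its 95% interval from edgeR for the 10 core clock genes (black) and 8 other clock loop genes (grey). Open points did not pass an adjusted p of 0.05, and all points shown are open. The intervals of Npas2, Per1 and Cry1 lie above 0, and those of Clock, Per2, Nr1d1, Nr1d2 and Dbp below 0.

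The relation of activators to repressors was then read within each liver, which removes scaling between libraries. It does not remove the trend with gene length that differed between diets, and no ratio was computed with that trend removed. Arntl stood against Nr1d1 at log2 ratios of -1.52, -1.33 and -0.30 with RD and of -0.27, 1.51 and 1.32 with HCD. The means were 1.91 apart, yet HCD replicate 1 and RD replicate 3 had almost the same ratio. Arntl against Nr1d2 gave -0.79, -0.42 and -0.55 with RD and 0.29, 0.32 and 0.95 with HCD, a difference in means of 1.11.

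Against the Per and Cry genes, the ratios of Arntl did not share a direction. Its log2 ratio to Per2 was 0.11, 0.81 and 1.52 with RD and 2.29, 1.78 and 1.78 with HCD, so that all HCD livers were higher. Its ratio to Per1 was 1.70, 2.44 and 1.47 with RD and 1.22, 0.03 and -0.02 with HCD, so that all were lower. To Cry1 the ratio was 0.66, 0.64 and 0.01 with RD and -0.31, -0.39 and -0.34 with HCD, again lower in all HCD livers. The ratios of Arntl to Per3 and to Cry2 overlapped between diets. Over the 6 livers Arntl varied 1.47-fold on CPM plus 0.5, a wider range than that of Cry2 (1.29-fold) and a narrower one than those of Per1, Per2, Per3 and Cry1.

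Averaged over genes, the log2 ratio of the 3 activators to the 7 repressors was 0.29, 0.51 and 0.67 with RD and 0.76, 1.16 and 1.28 with HCD. The diets did not overlap, with means 0.58 apart. Against the 2 REV-ERB genes the activators were at -1.24, -1.12 and -0.59 with RD and at -0.27, 1.12 and 1.29 with HCD, a difference of 1.70. Against the 5 PER and CRY genes they were at 0.90, 1.16 and 1.18 with RD and at 1.17, 1.18 and 1.27 with HCD, a difference of 0.13 with overlapping diets. In summed level the 2 REV-ERB genes together ranged from 73.8 to 94.1 CPM with RD and from 22.6 to 54.9 CPM with HCD, and the 5 PER and CRY genes from 54.0 to 71.0 and from 70.2 to 88.1 CPM.

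**Figure D3:**
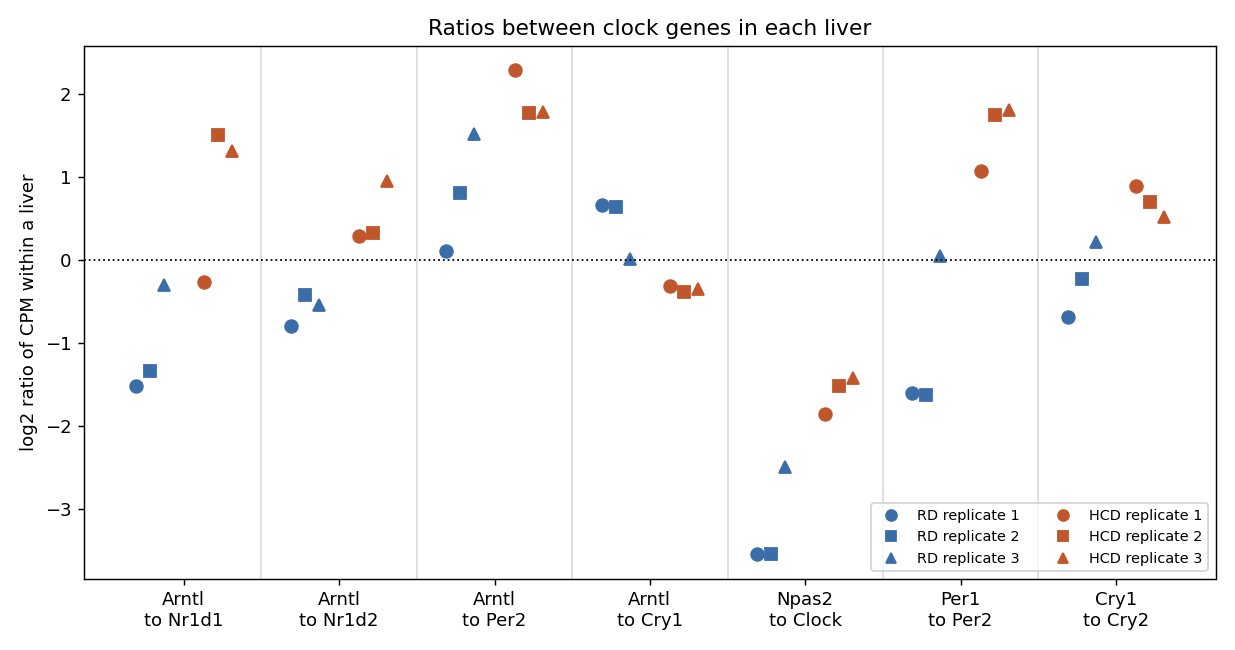
Log2 ratio of CPM between pairs of clock genes within each liver (vertical axis, CPM plus 0.5), for 3 RD and 3 HCD livers, where each symbol is 1 liver. HCD livers lie above RD livers for Arntl to Nr1d1, Nr1d2 and Per2, for Npas2 to Clock, Per1 to Per2 and Cry1 to Cry2, and below them for Arntl to Cry1. For Arntl to Nr1d1, RD replicate 3 at -0.30 and HCD replicate 1 at -0.27 nearly meet.

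Grouped by their usual hour of peak in mouse liver, the genes of each group did not all differ the same way. A list of 5 genes that peak with Arntl, from night to dawn (Arntl, Clock, Npas2, Cry1 and Nfil3), had 4 log2 fold changes above 0, and the exception was Clock. Its median was 0.13, where that of all genes tested was 0.01. A list of 11 genes that peak by day or at dusk had 10 tested members, 6 of them below 0, with a median of -0.38. Per1 was the 1 gene of that list with an unadjusted p of 0.05 or less in the higher direction, beside 4 in the lower direction, namely Nr1d1, Nr1d2, Per2 and Dbp. Both lists contain clock genes described above, so they are no separate evidence.

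Among the RD livers, replicate 3 lay toward the HCD values in most of these genes. Of the 7 genes whose diets did not overlap, it was the RD liver nearest to the HCD values in 6, with Nr1d2 as the exception. HCD replicate 1 was the HCD liver nearest to RD in 4 of the 7 (Npas2, Per1, Nr1d1 and Nr1d2). On CPM plus 0.5, the widest range over the 6 livers was that of Nr1d1, at 7.19-fold, followed by Per1 at 5.74-fold and Npas2 at 3.65-fold, and the narrowest was that of Cry2, at 1.29-fold.

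Levels of different genes are compared only per length, as the FPKM that the authors deposited, which divide fragments by gene length and by a library total. With RD, Nr1d1 was the most abundant at 23.5 ± 6.37 FPKM (SD, n = 3), followed by Nr1d2 at 9.44 ± 1.40, Cry1 at 7.88 ± 3.74 and Clock at 6.31 ± 0.406 FPKM. Cry2 at 4.63 ± 0.770, Arntl at 4.52 ± 0.936 and Per2 at 3.30 ± 0.939 FPKM came next, and Npas2 at 1.94 ± 0.844, Per1 at 1.64 ± 0.784 and Per3 at 0.409 ± 0.0926 FPKM were lowest. Neighbours in this order were separated without overlap only between Nr1d1 and Nr1d2, between Clock and Cry2, and between Per1 and Per3.

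With HCD the order was led by Cry1 at 14.5 ± 0.732 FPKM, and Nr1d1 at 8.22 ± 6.80 FPKM came second with overlapping values. Per1 at 5.31 ± 2.00, Arntl at 5.03 ± 0.401, Clock at 4.99 ± 0.625, Nr1d2 at 4.95 ± 1.32, Npas2 at 4.72 ± 1.27 and Cry2 at 4.67 ± 0.544 FPKM formed a middle group in which each neighbour overlapped the next. Only Per2 at 1.59 ± 0.235 FPKM and Per3 at 0.278 ± 0.0876 FPKM were set apart below them. Per1 thus went from the ninth to the third place and Per2 from the seventh to the ninth.

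**Figure D4:**
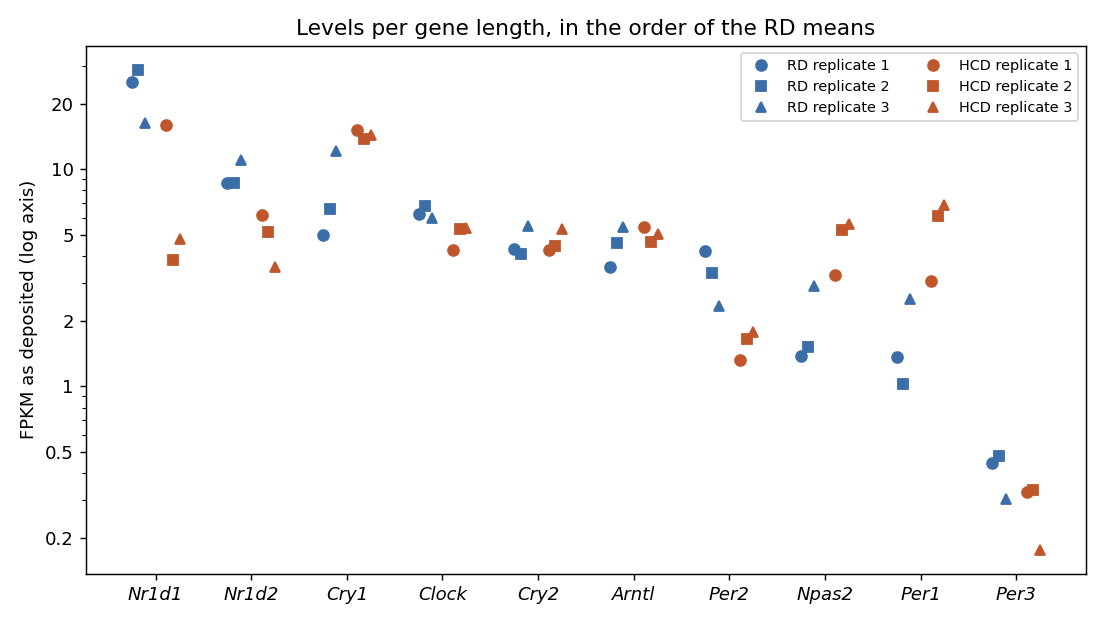
FPKM as deposited (log axis) of the 10 core clock genes in each of 3 RD and 3 HCD livers, ordered by the RD mean, where each symbol is 1 liver. Nr1d1 leads with RD at a mean of 23.5 FPKM and Cry1 with HCD at 14.5 FPKM, while most HCD genes lie near 5 FPKM.

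The genes whose pattern over the 6 livers was most like that of Arntl were found among the 9117 genes whose mean reached 5 CPM, by Pearson r of log2 CPM. Ctc1, Zfp395 and Arhgap18 were at 0.97, Zfp950 at 0.97 and Igfbp1 at 0.96, and at the other end Tuft1 and Mdfic were at -0.98, Pfkfb3 at -0.97 and Cnot11 and Gnpat at -0.96. Of the clock genes Cry1 was most like Arntl (0.81) and Per2 most opposed (-0.75). These values describe 6 livers that share their diets and libraries, and the named genes are the extremes of a long ranking.

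Other genes of the loops were described from a list of 12, of which 11 were in the tables and 8 were tested, with Arntl2, Bhlhe41 and Ciart under the filter on low counts. Of the 8, edgeR and DESeq2 both called 0, and 1, Dbp, had an unadjusted p under 0.05 in edgeR. Their median log2 fold change was -0.12, with 3 above 0.

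Rora, which encodes ROR alpha, an activator that competes with REV-ERB for its element, was at 49.0, 51.5 and 75.3 CPM with RD and at 62.0, 58.0 and 49.4 CPM with HCD, a log2 fold change of -0.05 (SE 0.19; edgeR adjusted p = 0.898). Its values overlapped, and the highest liver was RD replicate 3.

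Among the PAR-bZIP factors, Dbp, a direct output of the E-box loop, was at 3.61, 1.60 and 2.56 CPM with RD and at 0.40, 1.59 and 0.40 CPM with HCD. These are low levels, and RD replicate 2 and HCD replicate 2 were almost equal. The log2 fold change was -1.70 (SE 0.64; edgeR adjusted p = 0.182), and without HCD replicate 2 it was -2.66 (edgeR adjusted p = 0.0671). Its relatives Tef (-0.19), Hlf (0.09) and their antagonist Nfil3 (0.13) overlapped between diets (edgeR adjusted p = 0.475, 0.832 and 0.768). Of the remaining loop genes, the E-box repressor Bhlhe40 was at a log2 fold change of 0.51, the CLOCK inhibitor Cipc at -0.50 and Timeless at -0.67, none of them called (edgeR adjusted p = 0.356, 0.345 and 0.331). Single livers moved these values. Bhlhe40 was at 0.24 without RD replicate 1 and at 0.87 without RD replicate 2. Cipc was at -0.90 without HCD replicate 2 and at -0.29 without HCD replicate 3, and Timeless at -0.37 without HCD replicate 2.

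A list of 22 genes for enzymes and cofactors that act on clock proteins, such as casein kinases and ubiquitin ligases, held 1 called gene, a share near the 3.27% called among all genes. Prkca, which encodes protein kinase C alpha, rose from 7.42 ± 0.800 CPM to 13.4 ± 0.344 CPM (SD, n = 3; log2 fold change 0.86, SE 0.18, edgeR adjusted p = 0.0423). That call was lost in 10 of 16 alternatives, among them leaving out any 1 of the 6 livers (edgeR adjusted p up to 0.182). The median log2 fold change of the 22 was -0.11, with 7 above 0. At an unadjusted p of 0.05 or less 2 were higher and 1 lower, and DESeq2 called 1, higher. A list of 23 liver genes known as clock outputs held 1 edgeR call as well, again near that share. Cyp7a1, the rate-limiting enzyme of bile acid synthesis, fell from 104 ± 3.67 CPM to 30.9 ± 17.6 CPM (SD, n = 3; log2 fold change -1.75, SE 0.37, edgeR adjusted p = 0.0453). Its call was lost in 9 of 16 alternatives (edgeR adjusted p up to 0.146) and kept without HCD replicate 1 (log2 fold change -2.25, edgeR adjusted p = 0.0147). The median of the 23 was 0.21, with 17 above 0. At an unadjusted p of 0.05 or less 6 of the 23 were higher and 2 lower, where 11.1% and 9.81% of all genes were. DESeq2 called 3 of the 23 higher and 1 lower, where it called 6.97% of all genes.

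Lists for other influences on clock RNAs and for other cell types are given beside these results, against 3.27% of all genes called by edgeR, 6.97% called by DESeq2, and unadjusted p-values of 0.05 or less in 11.1% (higher) and 9.81% (lower). Of 11 tested glucocorticoid receptor targets, a list that includes Per1, 0 were called by edgeR, 4 reached an unadjusted p of 0.05, all higher, and DESeq2 called 2. Fasting genes had 2 of 12 called, both higher (Cyp4a10 and Cyp4a14). The Cyp4a10 call was lost in 7 of 16 alternatives and that of Cyp4a14 in 10 of 15, both among them without any 1 RD liver or without HCD replicate 3 (edgeR adjusted p up to 0.145 and 0.189). Without HCD replicate 1 both were called, at log2 fold changes of 1.91 and 3.24 against 2.96 and 5.26 with all livers. Feeding genes had 1 of 9 called, the lipogenic factor gene Srebf1 with a log2 fold change of 2.14 (SE 0.21, edgeR adjusted p = 0.00407). An unadjusted p of 0.05 was reached by 3 fasting and 2 feeding genes, all higher, and DESeq2 called 2 of each list. Heat shock genes had 3 of 10 called, all lower (Hspa8, Hsph1 and Hspa1b), while 7 reached an unadjusted p of 0.05 in the lower direction and DESeq2 called 5 lower. The 3 edgeR calls were lost in 4, 8 and 7 of 16 alternatives, in each case among them without RD replicate 1, without RD replicate 2 or without HCD replicate 3 (edgeR adjusted p up to 0.130, 0.161 and 0.124). Leaving out RD replicate 3 also ended the call of Hsph1, and leaving out HCD replicate 1 or HCD replicate 2 that of Hspa1b. Immediate early genes had 0 of 7 called in edgeR, where 2 reached an unadjusted p of 0.05, and 2 in DESeq2. The part of these lists in the clock values was not tested.

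Some markers of other cells were at higher values with HCD. Kupffer cell markers were above 0 in log2 fold change in 7 of 7, and the diets overlapped for each of them. In edgeR 0 of them were called and 3 reached an unadjusted p of 0.05, and DESeq2 called 2. They summed to 113 to 189 CPM with RD and 150 to 355 CPM with HCD. Red blood cell genes summed to 138 to 239 and 177 to 468 CPM. Alas2, the haem synthesis enzyme of red cells, made up most of the RD sum and overlapped between diets, at 105, 105 and 154 CPM with RD and at 8.24, 97.0 and 119 CPM with HCD (log2 fold change -0.70, edgeR adjusted p = 0.612). Of the 5 genes of this list, the globin genes Hba-a1 and Hbb-bs were called higher, calls lost in 4 of 16 alternatives each, namely the replicate block and leaving out RD replicate 1, RD replicate 2 or HCD replicate 3 (edgeR adjusted p up to 0.105 and 0.106). Leukocyte markers (4 tested) summed to 36.8 to 53.3 and 46.5 to 79.8 CPM, endothelial markers (6) to 83.8 to 144 and 106 to 172 CPM, stellate cell markers (6) to 281 to 318 and 302 to 542 CPM, and cholangiocyte markers (5) to 37.4 to 91.9 and 64.5 to 98.1 CPM. In edgeR 0 of these were called, with an unadjusted p of 0.05 or less in 1 leukocyte, 1 endothelial and 1 stellate cell marker, and DESeq2 called 1, an endothelial marker. Log2 fold changes were above 0 in 4 of 4 leukocyte, 5 of 6 endothelial, 6 of 6 stellate cell and 4 of 5 cholangiocyte markers. Among all 13105 genes tested, 6643 were above 0. Of 7 exocrine pancreas markers 1 was in the tables and it was not tested. No defining marker of these lists with a row in the tables was at 0 in all livers, and their part in the clock values was not tested.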

How the data were processed

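RNA from 3 livers per diet (RD and HCD, C57BL/6J mice) was sequenced by Novogene, 1 library each, and the diet of each library was taken from its label. The authors deposited read counts per gene, as whole numbers without normalization, and FPKM, whose sequenced total is not stated. Their log2 fold changes and p-values were not used. The submitters' processing notes name STAR, HTSeq, DESeq2, edgeR and GRCm39 without versions, while lengths worked out from counts and FPKM equal those of GENCODE M21 on GRCm38 within 0.1% for 95.1% to 95.3% of genes. The library kit and strand are not given in the sources used here.

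Counts were tested in R 4.3.3 with edgeR 4.0.16 (filterByExpr by diet, TMM factors 0.886 to 1.07, glmQLFit, glmQLFTest, no covariates), with Benjamini-Hochberg adjustment over 13105 genes and a call at an adjusted p under 0.05. The fit was tested on simulated counts with known changes. Every simulated gene had the same dispersion and no liver was set apart, so this does not give error rates for these data. CPM are TMM-scaled, and ratios use CPM plus 0.5. A count of 0 allows up to 3 counts, or 0.13 to 0.218 CPM, for counting error only. Permutation tests were exact and two-sided.

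All 10 members, the 8 tested loop genes and, of the modifier and output lists, up to 3 called rises and 3 called falls were named, with 5 genes at each end of the likeness to Arntl; other genes were named where their list had calls. Members and lists were chosen with earlier results of these data known, and 1 gene of the lists is not reported here. The alternatives were DESeq2 1.42.0, other scaling (RLE, upper quartile, or library sizes only), no filter or a mean count of 50 as the minimum, limma-trend (limma 3.58.1) on log2 of FPKM plus 1 or 0.1, removal of the length trend (loess, span 0.5), a replicate block, and each liver left out in turn. Figures were drawn with matplotlib 3.10.9.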

Additional observations from a re-analysis of the deposited data

How the results depend on the processing

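With all 6 livers, edgeR with TMM called 428 genes and 0 of the 10 core clock genes. DESeq2 called 992 genes and 5 clock genes, no filter on low counts called 649 and 5, removal of the length trend 251 and 0, and an unadjusted p of 0.05 or less took in 2739 and 7. Leaving out 1 liver gave 39 to 387 genes, 0 to 3 clock genes and 0 of the other loop genes. With all 6 livers, 1 of the other loop genes had an unadjusted p of 0.05 or less. The livers' numbers do not pair them (correlations of same-numbered deviations -0.08, 0.12 and -0.03), and the replicate block left 136 genes and 0 clock genes. Of 159 refitted values of the clock genes, 14 passed the threshold and 9 changed sign. These were Cry2, at 0.021 with upper-quartile factors, 0.0068 with a mean of at least 50 counts, 0.016 and 0.019 in limma on log2 of FPKM plus 1 and 0.1, 0.090 with the length trend removed and between -0.10 and 0.11 with a liver left out, and Arntl, between -0.012 and 0.26 with a liver left out. Among loop genes Rora was at 0.11 with the length trend removed and between -0.17 and 0.17 with a liver left out, Nfil3 between -0.052 and 0.39 and Hlf between -0.10 and 0.23. Of the other called genes named, Srebf1 kept its call throughout, and the rest lost it in some fits. The cause of these changes was not tested. The ROR and REV-ERB element was in 0 members before the start site. The ratio of activators to repressors kept its direction, at 0.47 to 0.73 with a liver left out, 0.50 on FPKM and 0.61 with a prior of 0.1. Per3 had only 14 to 61 counts per liver, and how far depth or the spread between livers sets the precision was not tested.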
